A study of Mus musculus with 8 samples.

Results

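Pax6 binding sites at the genes of the proteasome, the ubiquitin-activating and ubiquitin-conjugating enzymes and the deubiquitinases were described in the mouse line alphaTC1, which derives from pancreatic alpha cells and produces glucagon. The sites were taken from the authors' table of Pax6 sites by the gene symbol assigned to each one: Psma to Psmg genes, Usp, Ube2 and Uba genes, and Otub and Otud genes. The rule found 166 of 26244 sites, assigned to 77 genes, and it used no measured value. Pax6 chromatin immunoprecipitation with sequencing (ChIP-seq) was done after Paupar knockdown (Paupar KD), in cells given antisense oligonucleotides against the long non-coding RNA Paupar, and after control knockdown (control KD), in cells given antisense oligonucleotides with a scrambled sequence. The series has 8 libraries, each group having 2 libraries of Pax6 ChIP and 2 of input, described by its design text as biological duplicates. All libraries came from alphaTC1 cells, and the input libraries were not analysed here. Paupar RNA is not measured by this assay, so the knockdown itself was not checked.

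Ubiquitin is activated by an E1 enzyme, passed to an E2 conjugating enzyme and attached to a target protein with the help of an E3 ligase. Chains of ubiquitin are cut or trimmed by deubiquitinases, of which the ubiquitin-specific proteases (USP) and the ovarian tumour (OTU) proteases are large families. Tagged proteins are degraded by the proteasome, whose core particle of alpha and beta subunits holds the proteolytic sites and whose regulatory particle unfolds the substrates with a ring of ATPases. In islet endocrine cells, which make and fold large amounts of hormone precursor, this system also removes misfolded secretory proteins. Pax6 itself is a transcription factor with a paired domain and a homeodomain, required for islet endocrine cells.

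Of the 10 strongest sites of these genes by mean signal, 6 lay within the promoter window that RefSeq gives for the assigned gene, from 250 bases before to 50 bases after the annotated start. These windows are shown because they carry the strongest signal and because Ube2n, the first, is 1 of the 2 promoters called lower after Paupar KD. Sequences are from RefSeq on the GRCm38.p6 assembly, 5′ to 3′ on the strand of the gene, with the part inside the 100 bp Pax6 site in capitals.
Ube2n (chr10:95514912-95515211, plus strand): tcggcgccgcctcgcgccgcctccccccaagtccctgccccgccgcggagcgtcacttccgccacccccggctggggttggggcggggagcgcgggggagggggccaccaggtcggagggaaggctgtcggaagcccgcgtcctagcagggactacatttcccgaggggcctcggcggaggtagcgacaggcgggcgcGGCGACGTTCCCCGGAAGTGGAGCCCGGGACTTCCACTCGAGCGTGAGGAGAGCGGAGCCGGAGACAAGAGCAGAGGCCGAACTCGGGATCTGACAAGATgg
Ube2f (chr1:91250054-91250353, plus strand): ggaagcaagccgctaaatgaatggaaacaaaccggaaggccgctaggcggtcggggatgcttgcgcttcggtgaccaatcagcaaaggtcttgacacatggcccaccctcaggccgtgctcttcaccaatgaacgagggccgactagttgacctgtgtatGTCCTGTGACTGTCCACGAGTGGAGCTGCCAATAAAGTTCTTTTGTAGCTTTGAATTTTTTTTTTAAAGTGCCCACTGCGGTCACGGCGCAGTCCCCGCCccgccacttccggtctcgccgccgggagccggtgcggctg
Ube2t (chr1:134962315-134962614, plus strand): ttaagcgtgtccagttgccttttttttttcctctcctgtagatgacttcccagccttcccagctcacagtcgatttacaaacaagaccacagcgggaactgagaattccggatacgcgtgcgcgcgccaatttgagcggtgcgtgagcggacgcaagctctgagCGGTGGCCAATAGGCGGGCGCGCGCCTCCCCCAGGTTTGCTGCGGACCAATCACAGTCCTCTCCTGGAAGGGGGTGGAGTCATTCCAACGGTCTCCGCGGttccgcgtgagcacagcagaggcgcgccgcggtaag
Psmc2 (chr5:21786497-21786796, plus strand): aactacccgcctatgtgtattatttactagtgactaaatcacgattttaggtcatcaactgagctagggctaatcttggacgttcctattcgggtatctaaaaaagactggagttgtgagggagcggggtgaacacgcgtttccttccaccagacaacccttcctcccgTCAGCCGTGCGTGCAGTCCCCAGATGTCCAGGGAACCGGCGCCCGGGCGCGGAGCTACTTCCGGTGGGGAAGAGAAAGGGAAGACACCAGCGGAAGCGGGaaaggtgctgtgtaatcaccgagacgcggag
Psmd5 (chr2:34870913-34871212, minus strand): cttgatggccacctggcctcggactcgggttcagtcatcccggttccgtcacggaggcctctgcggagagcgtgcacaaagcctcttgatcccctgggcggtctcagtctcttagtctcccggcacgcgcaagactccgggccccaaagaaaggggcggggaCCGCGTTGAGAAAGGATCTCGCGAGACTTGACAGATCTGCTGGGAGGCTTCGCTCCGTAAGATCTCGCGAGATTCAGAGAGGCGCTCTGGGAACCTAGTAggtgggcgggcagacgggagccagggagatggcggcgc
Psmf1 (chr2:151741261-151741560, minus strand): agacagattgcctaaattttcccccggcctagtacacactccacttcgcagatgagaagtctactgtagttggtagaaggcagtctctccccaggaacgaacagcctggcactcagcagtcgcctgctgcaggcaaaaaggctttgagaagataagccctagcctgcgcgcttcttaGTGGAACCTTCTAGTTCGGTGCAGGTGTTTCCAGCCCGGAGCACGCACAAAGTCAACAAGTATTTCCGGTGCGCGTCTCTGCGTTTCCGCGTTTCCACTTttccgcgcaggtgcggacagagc
Ube2n and Ube2t encode E2 enzymes of DNA damage signalling, and Ube2f encodes an E2 enzyme that conjugates the ubiquitin-like protein Nedd8. Psmc2 encodes an ATPase of the regulatory particle, Psmd5 an assembly chaperone of that particle and Psmf1 an inhibitor of the core particle.

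Such windows were found for 60 of the 77 genes, and 17 sites overlapped the window of their own gene. These 17 windows were rich in CpG: the median GC content was 59.3% (range 50% to 72.7%), against 52.7% over all 32851 windows, and the median number of CpG dinucleotides was 22 (range 12 to 36), against 7 over all windows. Letters were searched on both strands. TTCACGC, letters from the core of the paired-domain site, was in 0 of the 17 windows and in 1.26% of all windows, and the homeodomain palindrome TAATTA was in 0 of 17 and in 5.29% of all. CCAAT was in 6 of the 17 windows (35.3%), against 37.4% of all windows; of the sequences shown, Ube2f had 1 of its 3 matches inside the site and Ube2t 2 of its 3. TGACNNNGC, the core of the antioxidant response element, was in 1 of 17 (5.88%), that of the core subunit gene Psmb6, against 12.4% of all. No match says only that these letters are not in the window. The 17 windows were chosen for overlapping a Pax6 site, and the full set was not. Windows of other genes with a Pax6 site were not compared.

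The deposited values behind every signal are the authors' mean concentration of each group, read as log2 values although the column names do not state the scale. There is no value per library, so no standard deviation or replicate count can be given for a concentration. Changes are Paupar KD minus control KD, with the sign turned from that of the deposited fold, and a site was called at a deposited false discovery rate (FDR) below 0.05. The read depth of the libraries is unknown.

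The question of the study was whether Pax6 occupancy differed after Paupar KD. Of the 166 sites, 5 were called higher in Paupar KD by the authors' deposited table, which is 3.01%, and 3.26% of all sites were called higher. A further 2 sites, 1.2%, were called lower, against 0.846% of all sites. At an unadjusted p below 0.05 by the authors' deposited table, 21 sites (12.7%) were higher and 9 (5.42%) lower, against 10.7% and 6.67% of all sites. The shares are near those of the whole table, so the calls do not set these genes apart. All 5 higher sites lay outside promoters, and both lower sites were promoters. Over the whole table, 1.57% of promoter sites were called higher and 1.39% lower, while 3.80% of intron sites and 4.38% of distal intergenic sites were called higher.

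The call with the smallest p-value was assigned to Ube2u, which encodes an E2 enzyme. This site (chr4:100407337-100407436, mm10) had a concentration of 6.49 in Paupar KD and 3.12 in control KD, a log2 change of 3.37 with an FDR of 1.25e-06 by the authors' deposited table. Summits, the positions of highest signal called in each library, were listed for both Paupar KD libraries, with scores of 98.0 and 47.0, and for neither control KD library. The score is the authors' own and was read as −log10 of the q-value, so that it ranks summits within 1 library. The assigned start of Ube2u is -71.4 kb away, minus meaning that the site lies upstream of the start used for it. That start can lie inside a gene, so a site with a minus sign can be inside its assigned gene. The Ube2u site itself is in intron 4 of 8 of Ror1, which encodes a receptor tyrosine kinase-like protein. The gene name therefore rests on the nearest annotated start, and the same holds for the other sites assigned to Ube2u.

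A site of Usp6nl (chr2:6359772-6359871, intron 2 of 14) had 6.65 in Paupar KD and 4.85 in control KD, with an FDR of 0.00149 by the authors' deposited table. Its summit scores were 90.7 and 56.1 in the Paupar KD libraries, against 13.9 and no summit in the control KD libraries. Usp6nl fits the symbol rule but encodes an activator of Rab GTPases, not a deubiquitinase. Another Usp6nl site lay in intron 5 of 14, at -15.5 kb from the start used for it. It had 6.39 in Paupar KD and 6.68 in control KD by the authors' deposited table (FDR 0.717). Strong sites of the same gene thus did not move together.

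Psmb4 encodes a beta subunit of the core particle that has no proteolytic activity. Its only site (chr3:94906597-94906696), intergenic and at -19.6 kb, had 5.28 in Paupar KD and 0.55 in control KD, with an FDR of 0.00312 by the authors' deposited table. A summit was listed in Paupar KD replicate 1 alone, with a score of 28.2, so this call had summit support from a single library. The same was true of Usp44, a deubiquitinase of the mitotic checkpoint. Its site at -18.3 kb (chr10:93813163-93813262) had 4.41 in Paupar KD and was listed at the floor of the scale, -0.01, in control KD, with an FDR of 0.0332 by the authors' deposited table. Its only summit, with a score of 14.3, was also in Paupar KD replicate 1. No fold is given against the floor.

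Usp18 removes the interferon-induced modifier ISG15 from proteins. A site assigned to it at 3.77 kb (chr6:121272317-121272416) lies in an intron of another RefSeq gene, Gm44148, and not inside Usp18. It had 5.08 in Paupar KD and 2.86 in control KD, with an FDR of 0.0431 by the authors' deposited table. Both Paupar KD libraries had a summit there, with scores of 20.8 and 6.53, and neither control KD library did. The Usp18 promoter site had 4.99 in Paupar KD and 5.57 in control KD by the authors' deposited table (FDR 0.574), so the sites assigned to this gene differed in direction and the promoter was not called.

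Of the 2 lower sites, that of Ube2n is described here. The Ube2n enzyme builds signalling chains together with the Ube2v1 product. Its promoter site (chr10:95515110-95515209), shown in capitals above, had 8.03 in Paupar KD and 8.85 in control KD, a log2 change of -0.83 with an FDR of 0.0145 by the authors' deposited table. The scores were 30.6 in Paupar KD replicate 2, against 52.3 and 25.7 in control KD, and Paupar KD replicate 1 had no summit. Values per library behind this change are not in the table, so the part of replicate 1 in it was not tested.

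**Figure D1:**
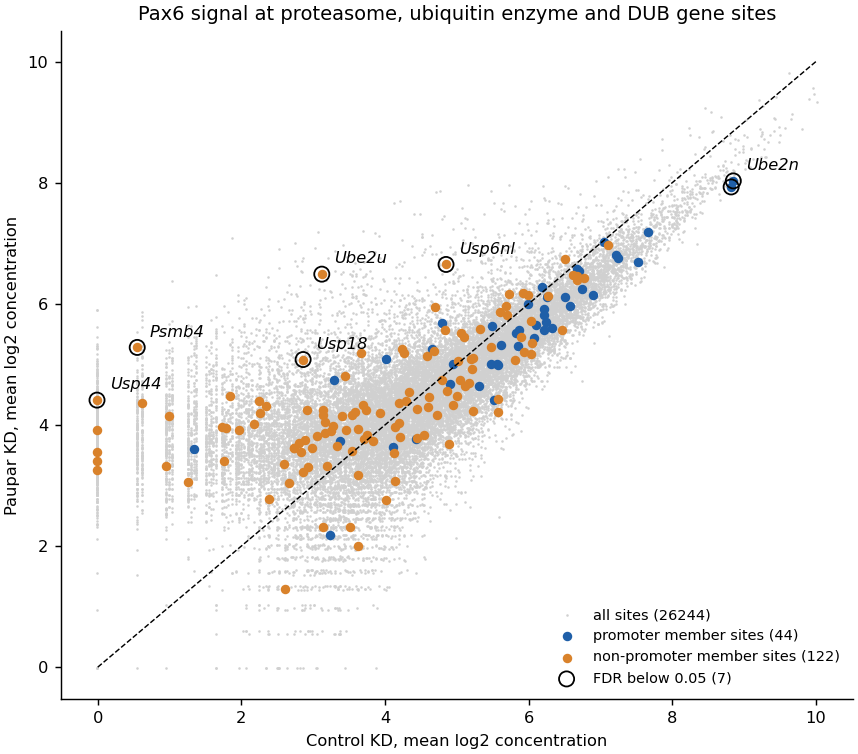
Mean log2 concentration of each Pax6 site in Paupar KD (vertical axis) against control KD (horizontal axis). Grey points are all 26244 sites, coloured points the 166 sites of proteasome, ubiquitin enzyme and deubiquitinase genes, and rings the 7 called sites. The 5 called higher are non-promoter sites above the dashed line of equality, and the Ube2n promoter lies below it at the strong end.

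Just inside the threshold were the Usp44 and Usp18 sites. Just outside were a second site of Ube2u in Ror1 (4.48 in Paupar KD and 1.84 in control KD, FDR 0.0694), a site at -48.4 kb from Psma1 (3.91 in Paupar KD and at the floor, -0.01, in control KD, FDR 0.08), a site of Usp15 (5.95 in Paupar KD and 4.70 in control KD, FDR 0.0983) and the Ube2c promoter (6.69 in Paupar KD and 7.52 in control KD, FDR 0.1), all by the authors' deposited table. Usp15 is a deubiquitinase of receptor signalling, and the Ube2c product is the E2 enzyme of the anaphase-promoting complex.

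Over all 166 sites the median log2 change was 0.04, against -0.03 over the whole table. The 44 promoter sites had a median of -0.43, with 34 of them below 0 (77.3%), and the 122 other sites a median of 0.28. All 7216 promoter sites of the table had a median of -0.23, with 64.3% below 0, and all other sites a median of 0.08. The promoter sites of these genes were stronger than most: 28 of the 44 were above a mean concentration of 5.38, the upper quartile of all sites. Above that bound their median was -0.43, and that of all 3102 promoter sites was also -0.43. Outside promoters and above the same bound, the median was -0.14 for the 24 sites of these genes and -0.28 for all sites. Below 5.38 the 10, 3 and 3 promoter sites of the lower quartile ranges, from strong to weak, had medians of -0.35, -0.48 and 0.35, against -0.16, 0.10 and 0.61 for all promoter sites. None of these differences was tested.

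**Figure D2:**
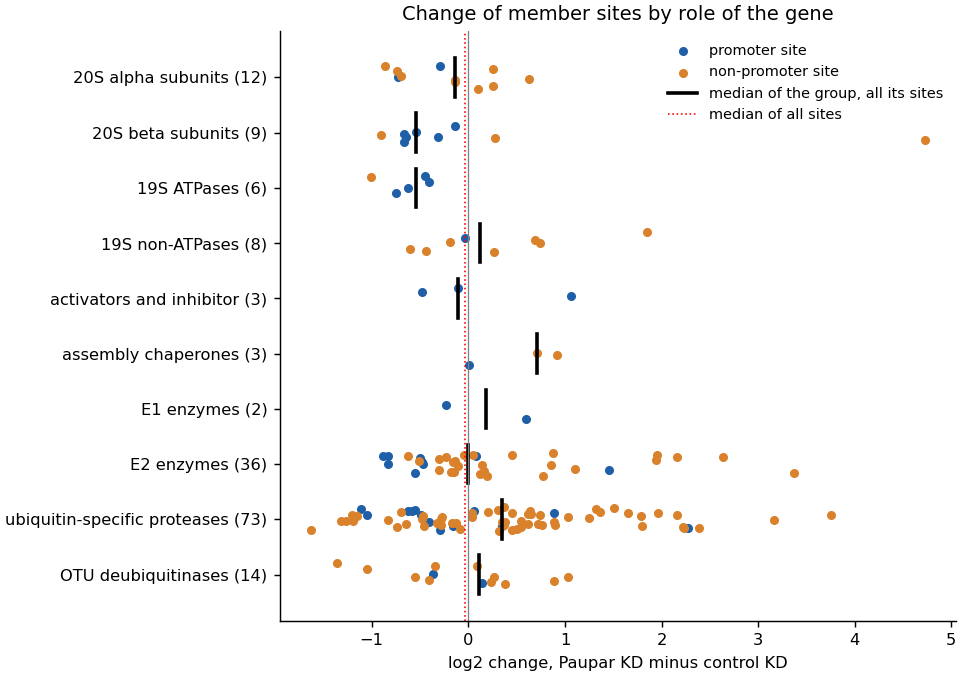
Log2 change (Paupar KD minus control KD, horizontal axis) of each site, grouped by the role of the gene, with the number of sites in brackets. Roles follow the gene symbol, so Psmc3ip and Usp6nl are counted with the other Psmc and Usp genes. Points are sites, black bars the median of each role and the dotted line the median of all sites. The 5 sites at the floor of the scale are not drawn but count in the medians. Promoter sites (blue) lie mostly below 0, while the points far to the right are non-promoter sites apart from a Usp7 promoter site at 2.27.

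Among subunits of the core particle, 4 of 8 alpha genes and 8 of 11 beta genes had at least 1 site. Psmb4 held the 1 called site of this particle. The 8 promoter sites of these subunits all had a change below 0 by the authors' deposited table, from -0.14 at Psmb2 (6.11 in Paupar KD and 6.26 in control KD) to -0.73 at Psma1 (5.60 in Paupar KD and 6.32 in control KD), and none was called. They include Psmb8 and Psmb10, whose products replace constitutive catalytic subunits in the immunoproteasome. Psmb8 had 3.76 in Paupar KD and 4.43 in control KD, and Psmb10 had 5.57 in Paupar KD and 6.22 in control KD, with FDRs of 0.708 and 0.369 by the authors' deposited table. The strongest core site was not a promoter: an intronic site of 4933406I18Rik, -47.1 kb from Psma1, had 6.97 in Paupar KD and 7.11 in control KD (FDR 0.860 by the authors' deposited table). Its summit scores were 87.1 and 103 in Paupar KD, against 117 and 39.7 in control KD, so all 4 libraries had it.

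For the regulatory particle, 6 of 7 genes with a Psmc symbol and 5 of 14 with a Psmd symbol had a site. None of these sites was called, and 4 of the 4 Psmc promoter sites had a change below 0. Psmc2 had 6.80 in Paupar KD and 7.21 in control KD, and Psmc3 had 6.15 in Paupar KD and 6.90 in control KD, with FDRs of 0.485 and 0.161 by the authors' deposited table. One of the 4 belongs to Psmc3ip, which encodes a meiotic recombination factor and no subunit. The only Psmd promoter site, that of Psmd5, had 7.02 in Paupar KD and 7.05 in control KD, nearly equal concentrations by the authors' deposited table (FDR 0.972). Psmd4, a ubiquitin receptor of the proteasome, had 4 sites and no promoter site among them. Their changes ran from -0.44 to 1.85, the highest at 4.02 in Paupar KD and 2.18 in control KD (FDR 0.280 by the authors' deposited table).

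Of 7 genes for activators and the inhibitor, 2 had a site. Both sites of Psmf1 were promoter sites: the stronger, shown above, had 6.57 in Paupar KD and 6.68 in control KD, and the weaker, 0.876 kb from the start, had 5.09 in Paupar KD and 4.02 in control KD (FDRs 0.908 and 0.353 by the authors' deposited table). Psme2, a subunit of the interferon-induced proteasome activator, had 3.63 in Paupar KD and 4.11 in control KD at its promoter (FDR 0.803 by the authors' deposited table). The assembly chaperone gene Psmg3 had equal signal at its promoter, with 6.0 in Paupar KD and 5.99 in control KD by the authors' deposited table. Psmg4, another chaperone gene, had 5.18 in Paupar KD and 4.26 in control KD at -8.49 kb (FDR 0.459 by the authors' deposited table). Leaving out Psmc3ip, the 40 sites of 26 proteasome genes had a median change of -0.14, and 14 of their 16 promoter sites were below 0.

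Of the 8 E1 genes that fit the rule, Uba1 alone had sites. Uba1 is the main activating enzyme of ubiquitin. Its 2 promoter sites had 5.26 and 4.68 in Paupar KD, against 4.66 and 4.90 in control KD, with FDRs of 0.623 and 0.885 by the authors' deposited table. The first had a summit in each Paupar KD library and in no control KD library.

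E2 genes held 36 sites on 14 of 37 genes, with 1 called higher and 2 called lower. Of all sites, 3.26% were called higher and 0.846% lower, and these few calls were not tested against those shares. Their 9 promoter sites had a median change of -0.50. The Ube2f promoter had 7.19 in Paupar KD and 7.66 in control KD, and the Ube2t promoter had 6.75 in Paupar KD and 7.25 in control KD, with FDRs of 0.326 and 0.333 by the authors' deposited table. Promoter sites against that direction were those of Ube2h (4.75 in Paupar KD and 3.29 in control KD, FDR 0.248) and the one at -2.41 kb from Ube2v1 (6.27 in Paupar KD and 6.19 in control KD, FDR 0.948), both by the authors' deposited table. Ube2v1 is the catalytically inactive partner of the Ube2n product, and none of its 6 sites was called. An intronic site of Ube2d1, an E2 enzyme used by many ligases, had 4.20 in Paupar KD and 2.26 in control KD (FDR 0.246 by the authors' deposited table). Ube2o, a large enzyme with both E2 and E3 activity, had 4 intronic sites with changes from -0.30 to 0.77.

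USP genes held the largest number of sites, 73 on 30 of 56 genes, with 3 called higher and 0 lower. Over all sites of the table, 3.26% were called higher and 0.846% lower. The USP counts and median take in Usp6nl, which encodes no deubiquitinase and held 4 of the sites and 1 of the calls. The USP median was 0.35, and that of the 14 USP promoter sites was -0.36. The Usp37 promoter had 6.54 in Paupar KD and 6.70 in control KD, the Usp1 promoter 6.25 in Paupar KD and 6.74 in control KD, and the Usp8 promoter 5.81 in Paupar KD and 6.22 in control KD (FDRs 0.867, 0.442 and 0.623 by the authors' deposited table). Usp1 acts in DNA repair and Usp8 on endosomal cargo. The Usp48 promoter went the other way, with 5.68 in Paupar KD and 4.79 in control KD (FDR 0.338 by the authors' deposited table), and had summits in all 4 libraries. The proteasome-bound Usp14 had 1 site, at -7.31 kb, with 5.72 in Paupar KD and 6.04 in control KD (FDR 0.764 by the authors' deposited table). The lowest changes among USP sites above 2 in both groups were at Usp30, Usp46 and Usp12. An intronic site of Usp30, a mitochondrial deubiquitinase, had 2.76 in Paupar KD and 4.02 in control KD, and a site 35 kb from Usp46 had 2.32 in Paupar KD and 3.51 in control KD (FDRs 0.522 and 0.641 by the authors' deposited table).

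OTU genes held 14 sites on 5 of 10 genes, and none was called. Otub1, which restrains Ube2n besides cutting chains, had all 3 sites below 0, including the lowest change of any site above 2 in both groups. That site, in Macrod1 and 47.1 kb from the start, had 4.21 in Paupar KD and 5.57 in control KD (FDR 0.139 by the authors' deposited table). All 4 sites of Otud7a were above 0, from 0.09 to 0.89. The strongest OTU site was intergenic, -23.6 kb from Otud4, with 6.74 in Paupar KD and 6.51 in control KD (FDR 0.768 by the authors' deposited table) and summit scores of 67.1 and 97.1 in Paupar KD, against 60.8 and 43.4 in control KD. Otud3 had its strongest site at -8.25 kb with 6.43 in Paupar KD and 6.77 in control KD (FDR 0.648 by the authors' deposited table).

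Of the 77 genes, 40 had 1 site, 19 had 2 and 18 had 3 or more. Usp12, whose product works with WD-repeat partner proteins, had the most, with 9 intergenic sites between 47.9 and 84.5 kb from its start. Their changes were mixed, 5 above and 4 below 0, from -1.32 to 1.79. Usp29 is an imprinted gene that shares its promoter region with Peg3, and 7 of its 8 sites were above 0. All Usp29 sites but the promoter site lay in introns of Usp29. Among its sites above 2 in both groups, the largest change was in intron 4 of 8 (-27.9 kb). That site had 4.40 in Paupar KD and 2.24 in control KD (FDR 0.195 by the authors' deposited table). The promoter had 5.01 in Paupar KD and 5.56 in control KD (FDR 0.586 by the authors' deposited table). Neither gene had a called site. All 5 sites of Usp44 were above 0, and besides the called one, the site at -20.7 kb had 4.32 in Paupar KD and 2.35 in control KD (FDR 0.203 by the authors' deposited table). Of the 8 sites assigned to Ube2u, all inside Ror1, 7 were above 0. Psma1 had 4 of 8 above and 4 below 0, and all 5 sites of Usp10 were above 0 with changes of 0.32 to 0.74. A pair of the Usp10 sites started 201 bp apart and matched the same summits, so they are not separate measurements.

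Changes differed with the strength of the sites. Of the non-promoter sites up to a mean concentration of 3.61, the lower quartile of all sites, 32 of 38 were above 0. Over the whole table it was 3891 of 5567 such sites. The medians were 0.82 and 0.74. The 32 include the 5 sites at the floor of the scale in control KD. Above the upper quartile 11 of 24 non-promoter sites were above 0, against 1031 of 3427 over the whole table. These are descriptions with no test.

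**Figure D3:**
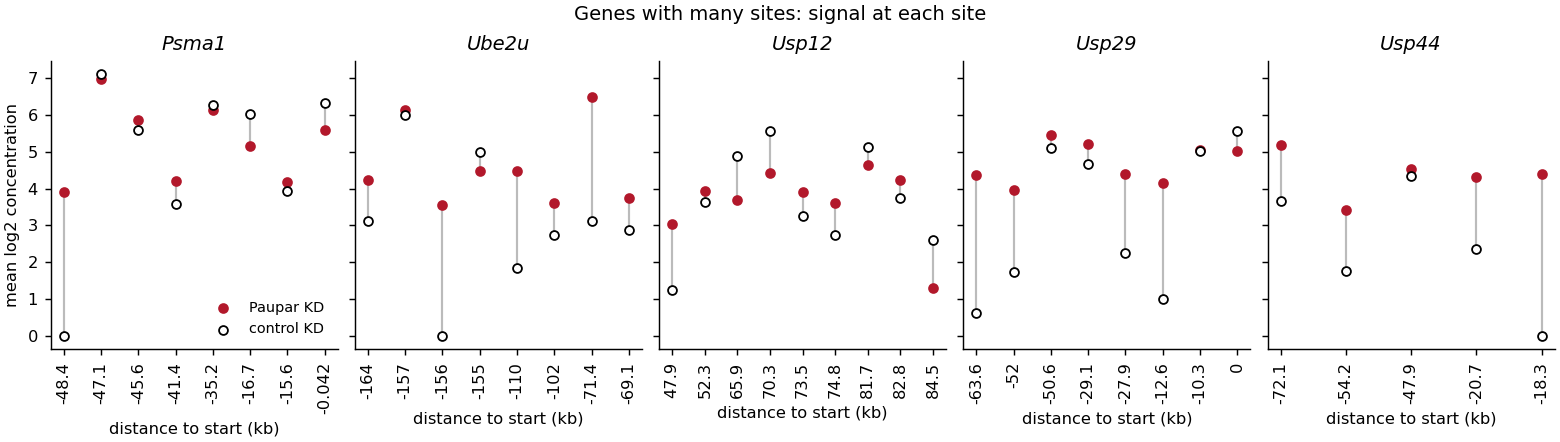
Mean log2 concentration (vertical axis) at each site of 5 of the genes with 5 or more sites, picked with no rule set beforehand. Ube2v1 (6 sites, 2 above and 4 below 0) and Usp10 (5 sites, all above 0) are not drawn. Sites are in order of the distance in kb to the annotated start used for each of them, not to scale. Negative is upstream of that start, which can lie inside the gene, as at Usp29. Filled points are Paupar KD and open points control KD, joined by a grey line. At 7 of 8 sites of Ube2u, 7 of 8 of Usp29 and 5 of 5 of Usp44 the filled point is above the open one, by distances that differ between sites, and at Usp12 the order of the groups differs from site to site.

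Of the 166 sites, 75 lay inside the assigned gene, 15 inside another protein-coding gene, 15 inside a non-coding or other gene and 61 in no gene. By distance, 79 were within 10 kb of the annotated start and 25 lay beyond 50 kb. The authors' promoter class held 26.5% of the sites (exact 95% interval 20% to 33.9%), against 27.5% of all sites, and introns held 34.9% against 36.8%. The interval covers counting error only, and neighbouring sites are not independent.

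Summits gave the one measurement with a value per library. In Paupar KD, 90 and 111 of the 166 sites had a summit within 250 bp of their middle, against 80 and 57 in control KD, a mean of 100.5 ± 14.8 in Paupar KD and 68.5 ± 16.3 in control KD (SD, n = 2 each). An exact permutation test (two-sided) gave p = 0.33, the smallest that 2 libraries against 2 allow. Both Paupar KD libraries were above both control KD libraries. The lists held 15611 and 17942 summits in Paupar KD, against 14311 and 9983 in control KD, so the counts moved with the length of the lists. With the 9983 highest scores kept in each list, 55 and 63 sites had a summit in Paupar KD, against 57 and 57 in control KD, and the groups then overlapped. Shares of all sites with a summit were alike: 54.4% and 63.1% in Paupar KD, against 50% and 34.9% in control KD, where the 166 sites had 54.2% and 66.9% in Paupar KD, against 48.2% and 34.3% in control KD.

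In all 4 libraries, 28 of the 166 sites had a summit (16.9%), against 20% of all sites. Summits in both Paupar KD libraries and in no control KD library were found at 18 sites (10.8%), against 8.26% of all sites. Of these 18, the Ube2u and Usp18 sites described above were called higher (11.1%), 14 had a change above 0, and the median change was 0.74. Of the 2167 sites of the whole table with this pattern, 417 were called higher (19.2%), and the median was 1.04. With lists of equal length 5 sites had this pattern. The 18 included promoters with equal or lower concentration after Paupar KD: Psmb2 had summit scores of 21.4 and 3.65 in Paupar KD and none in control KD, and Ube2t had 11.7 and 8.57 in Paupar KD and none in control KD. At these promoters the summit lists and the concentrations did not go the same way. Among non-promoter sites with this pattern were Ube2e2 (3.95 in Paupar KD and 1.79 in control KD, FDR 0.232), Otud7b (4.16 in Paupar KD and 3.13 in control KD, FDR 0.560) and Usp9x at -8.24 kb (3.91 in Paupar KD and 3.46 in control KD, FDR 0.844), all by the authors' deposited table.

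The opposite pattern, with both control KD libraries having a summit and neither Paupar KD library having one, was found at 3 sites (1.81%), against 1.47% of all sites. These were promoter sites of Psmb3, Ube2v1 and Usp5, a protease that takes apart unanchored ubiquitin chains. Psmb3 had 5.51 in Paupar KD and 5.83 in control KD, and Usp5 had 5.91 in Paupar KD and 6.21 in control KD, with FDRs of 0.806 and 0.746 by the authors' deposited table. Their summit scores in control KD were 22 and 8.14 at Psmb3, 19.1 and 8.37 at Ube2v1, and 2.70 and 6.06 at Usp5. None of the 3 was called.

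Strong promoter sites of these genes often had no summit in some of the libraries. Above a mean concentration of 6, a bound chosen after the values were seen, 2 of 18 promoter sites had summits in all 4 libraries (11.1%), against 844 of 1736 promoter sites of the whole table (48.6%). Outside promoters at the same bound it was 10 of 11 sites (90.9%), against 1514 of 1716 (88.2%). The gap between promoters and other sites was thus seen over the whole table, and was wider at these genes by description, with no test. At a bound of 5 the promoter shares were 17.6% (6 of 34), against 35.5%, and at a bound of 7 they were 14.3% (1 of 7), against 61.9%. The 2 promoters with summits in all 4 libraries were those of Ube2c and Usp51.

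The difference lay in the summit scores as well. Above the bound of 6, where a summit was listed, the median score at the promoter sites was 11.7 and 9.40 in the Paupar KD libraries, against 16.8 and 15.0 in the control KD libraries. These medians rest on 7 and 15 promoter sites in Paupar KD, and on 11 and 7 in control KD. At the other sites it was 39.5 and 54.6 in Paupar KD, against 45.5 and 32.6 in control KD. Over the whole table the promoter sites had 19.5 and 18.5 in Paupar KD, against 21.6 and 16.2 in control KD. All other sites of the table had 42.9 and 49.5 in Paupar KD, against 53.0 and 30.2 in control KD. Lower scores at promoters were thus seen over the whole table. The Ube2f promoter, among the 10 strongest sites, had 1 summit in the 4 libraries, with a score of 7.57 in Paupar KD replicate 2. The Usp37 and Usp8 promoters also had a summit in that library alone, with scores of 3.95 and 3.34. Input signal at these promoters was not examined, and its part in the scores was not tested.

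**Figure D4:**
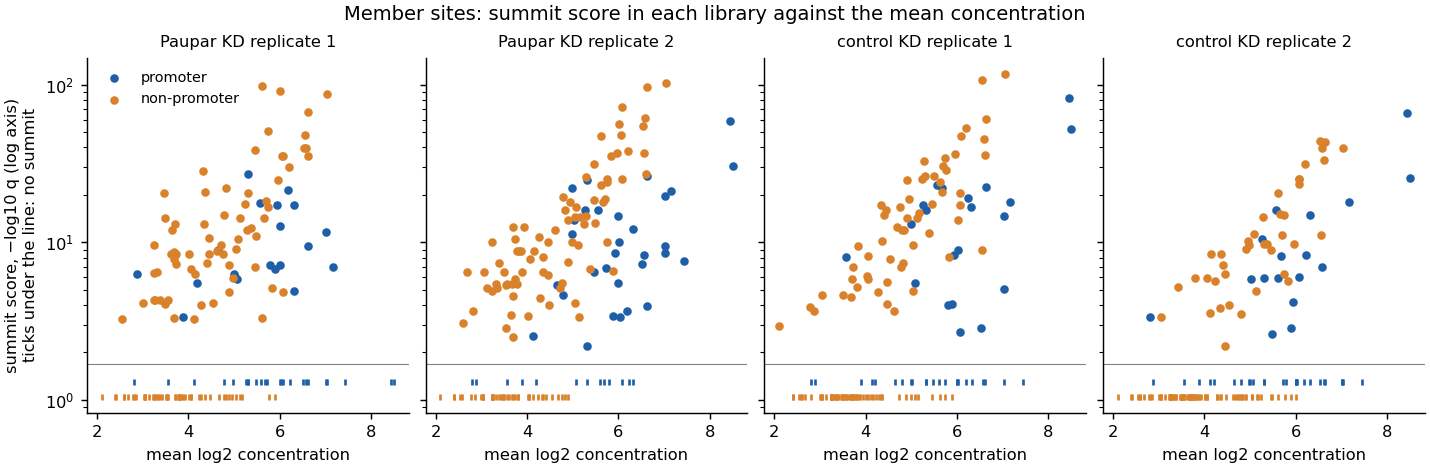
Summit score (−log10 q, log axis) against mean log2 concentration for each of the 166 sites, with 1 panel for each ChIP library, the Paupar KD libraries on the left. Ticks under the line are sites with no summit in that library. At the same concentration, promoter sites (blue) mostly have lower scores than non-promoter sites (orange), and above a concentration of 6 most of the ticks are blue.

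Other genes of the pathway, outside the symbol rule, were counted from a list of 67 genes, of which 37 had a site. Of their 82 sites, 6 were called higher and 0 lower by the authors' deposited table, with a median change of 0.05. That is 7.32% called higher, against 3.26% of all sites, a difference that was not tested, and 0.846% of all sites were called lower. At the 4 sites of the ubiquitin genes and at the 11 sites of proteasome partners, none was called. Of 18 sites of other deubiquitinases 1 was called, an intronic site of Otulin, which cuts linear ubiquitin chains (4.62 in Paupar KD and 0.61 in control KD, FDR 0.0164 by the authors' deposited table). This Otulin site had a summit in 1 library alone. The other 5 called sites were among the 49 sites of E3 ligases and scaffolds (10.2%). A site of Ubr4, a ligase that recognises protein N-termini, had 5.94 in Paupar KD and 2.55 in control KD (FDR 3.59e-05 by the authors' deposited table). A site of Siah2, a RING ligase, had 6.10 in Paupar KD and 4.41 in control KD, and Ubr3 had 5.89 in Paupar KD and 4.27 in control KD (FDRs 0.0323 and 0.0253 by the authors' deposited table). Nedd4l, a ligase of membrane channels, had the remaining 2, one with 5.85 in Paupar KD and 3.99 in control KD and the other with 4.37 in Paupar KD and 0.55 in control KD (FDRs 0.0128 and 0.0388 by the authors' deposited table). The latter Nedd4l site, which was intergenic, had a summit in 1 library alone. Otulin, Ubr4, Siah2 and Nedd4l also had sites that were not called.

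No site was listed in the table used here for 85 of the 162 RefSeq protein-coding genes that fit the rule. Among them were Psmb5, which encodes a catalytic subunit of the core particle, Psmd14, which encodes the deubiquitinase of the regulatory particle, and Psme1, the partner of Psme2. A gene with no site here is one whose symbol no site carried, and a distal site near it may have been given to a neighbour. Psme3ip1 is counted among the 85, although its gene identifier holds 2 sites, which the table lists under the symbol Fam192a and the rule therefore did not take.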

How the data were processed

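Pax6 ChIP-seq was analysed from the authors' processed files. Per the submitters' processing notes, Bowtie2, MACS2, DiffBind and ChIPseeker were used, without versions, on mm10; no source used here gives the test, the normalization or how input entered. The deposited site table of the authors holds log2 concentrations per group and a log2 fold, a p-value and an FDR, the −log10 of that FDR (not needed) and a distance to the nearest start. Whether the 2 libraries of a group were scaled alike is unknown, and so is their depth, which limits precision. The deposited summit lists, 1 per ChIP library, hold a score whose minimum, 2.00 to 2.01, led to its reading as a −log10 q-value. The names inside the list of control KD replicate 2 give a different number, and the deposited sample record was followed.

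Python 3.11.15 with pandas 2.3.3 and scipy 1.17.1 was used. Fold and concentrations disagreed by more than rounding at 0 sites. All 77 gene identifiers matched a RefSeq gene of the same symbol. The authors' test was used as deposited. Sites at or below 0 in a group (5 of the 166) were listed as at the floor. At 6 sites the FDR was 1 although p was below 0.99; they lay outside the authors' adjustment and count as not called. A summit supported a site within 250 bp of its middle; this step was tested on simulated data. Sites were named if called, if the strongest of their role group or if among the 10 strongest. They were also named if among the 5 largest changes each way with both concentrations above 2. Further grounds were a gene with 3 or more sites, or summits in both libraries of 1 group only. Named outside these rules, after the values were seen, were Usp48, Psmb6, Psmb8, Psmb10, Psmc3, Psmc3ip, Psme2, Psmg4, Usp1, Usp8, Usp14 and Usp15. The same holds for the promoter sites of Usp18 and Usp51 and the weaker Uba1 site. The members, gene lists and tests were chosen with earlier results of these data known. Coordinates are 1-based. Some results are not reported here.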

Additional observations from a re-analysis of the deposited data

How the results depend on the processing

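Of the values computed under other settings, 28 stayed close to the reported ones (counts within 1.5 times, medians within 0.1) and 25 did not. The count of sites called higher, 5, was 3 at an FDR below 0.01, 8 below 0.1, 21 at an unadjusted p below 0.05, 0 among promoter sites, 2 within 10 kb of a start and 3 among sites with summits in at least 2 libraries; the shares of all sites were then 1.39%, 4.99%, 10.7%, 1.57%, 2.10% and 4.40%. The count called lower, 2, was 1 at an FDR below 0.01 and 9 at an unadjusted p below 0.05 (0.137% and 6.67% of all sites). The median change of 0.04 became -0.43 over promoter sites and -0.29 over sites within 10 kb, -0.29 over the strongest site of each gene and -0.28 over sites above the median concentration, against -0.23, -0.15, -0.23 and -0.26 over all sites so chosen. The promoter share over the strongest site of each gene was 44.2%, against 43.8% for all genes. The restriction to 2 libraries and the removal of Psmc3ip and Usp6nl (4 higher, 2 lower) were chosen after seeing the data.

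Sites with summits in Paupar KD alone, 18, were 5 with lists of equal length and 24 to 45 when 1 library was left out. Those in control KD alone, 3, were 1 within 100 bp, 5 with lists of equal length and 6 to 12 when 1 library was left out. Sites with summits in every library, 28, were 31 to 38 with 1 library left out. Leaving 1 library out removes a condition from each of these patterns, so these counts could only stay or rise. The difference in sites per library, 32, was 2.0 with lists of equal length and 20.5 to 43.5 with 1 library left out; these settings were chosen after seeing the data. The cause of the fall with equal lists and of the remaining shifts was not tested. With the replicate number as a block, the paired differences in sites per library were 10 and 54, with the same mean of 32.0 (exact paired permutation p = 0.5, the smallest that 2 pairs allow); nothing in the labels pairs the libraries. For the sites, no paired analysis was possible because the table holds group means. Read depth is unknown, so what it limits cannot be stated.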
